A study of Mus musculus with 36 samples.

Results

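Pancreatic islets of wild-type (WT) mice fed a control diet (CD) were described on their own, as the baseline of a study of Gnaz, the gene for the inhibitory G protein subunit Gαz. The group was chosen by its labels and holds 5 of the 18 gene-level arrays, those titled with islet numbers 4, 5, 6, 14 and 15, here called WT CD 4 to WT CD 15. All 5 came from male mice of the B6N background with an intact Gnaz gene, and none had received the high-fat diet. The labels give an age of 6 months, near that which the methods imply from the start and length of the diet. The deposited protocol gives 37 to 40 weeks instead. Each array carried RNA from the islets of 1 mouse. The islets had been freed with collagenase and picked by hand from the acinar tissue under a stereomicroscope.

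An islet is a cluster of hormone-secreting cells set in the exocrine pancreas. Beta cells store insulin and amylin, alpha cells glucagon, delta cells somatostatin and PP cells pancreatic polypeptide, and all pack their hormones into dense granules together with granins and processing enzymes. Around the islet lie acinar cells, which secrete digestive enzymes into ducts, and through it run a dense capillary bed, pericytes, macrophages and a thin capsule of connective tissue. RNA of a whole islet preparation is therefore a mixture, in which fewer cells of a type and less RNA per cell cannot be told apart.

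The array (Mouse GeneChip Exon 1.0 ST) reports each gene as a log2 level after robust multiarray average (RMA) processing. Of 23332 transcript clusters, 14996 carried 1 gene symbol, and these gave 14860 genes. The level of a gene depends on its probes as well as on its RNA, so ranks by mean are ranks of brightness and not of abundance. The median over all clusters was 8.03 to 8.09 in the 5 arrays and the highest value 14.62 to 14.69. As a reference for dim signal, 712 olfactory receptor genes, which sense odors in the nose, had a median level of 5.16. The 95th percentile of these genes was 7.48, and 10225 genes (68.8% of those ranked) had a higher mean. Over all genes, pairs of arrays among WT CD 4, 5, 6 and 15 correlated at 0.995 to 0.996 (Pearson's r, across genes, which are not independent replicates). WT CD 14 correlated with the others at 0.990 to 0.992. Because 1 group has no contrast, nothing was tested between groups, and all values below are descriptions of these 5 mice.

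Marker genes were checked against the islet label. Of 24 listed beta cell genes, 20 were measured, with a median level of 12.24, and 19 of them lay above the olfactory receptor reference, as did all 5 measured alpha cell genes and all 7 genes of delta, PP and epsilon cells. The median level of all genes was 8.54, and 68.8% of them lay above the reference. All 15 measured digestive enzymes of acinar cells and all 16 endothelial genes also lay above it. Passing the reference therefore does not separate endocrine cells from other cells of the preparation. Gnaz itself read 11.15, 11.14, 11.10, 11.04 and 11.10 in WT CD 4, 5, 6, 14 and 15, rank 1062 in brightness. Ptger3, which encodes the prostaglandin EP3 receptor, read 8.67, 9.16, 9.08, 8.36 and 9.11, so WT CD 4 and 14 were the lowest. Of the 9 liver genes 2 lay above the reference, 1 of which was Ttr, a gene also listed for alpha cells. Of the 13 intestinal genes 7 did, with a median level of 7.49, close to the reference itself.

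The brightest genes of these islets fell into 2 main families, the secretory products of acinar cells and the hormones and granule proteins of endocrine cells. Among the 50 brightest, 17 encoded acinar secretory products, 7 islet hormones or peptides, 6 proteins of the secretory granule, 3 other genes of endocrine cells and 17 genes with other roles. Their means ran from 13.27 to 14.43. The last of them, Dad1, a subunit of the complex that attaches sugars to new proteins, had a mean of 13.27, as did Mlec, the next below it, a lectin of the endoplasmic reticulum (ER). The median SD of the 50 was 0.05, against 0.09 over all genes.

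**Figure D1:**
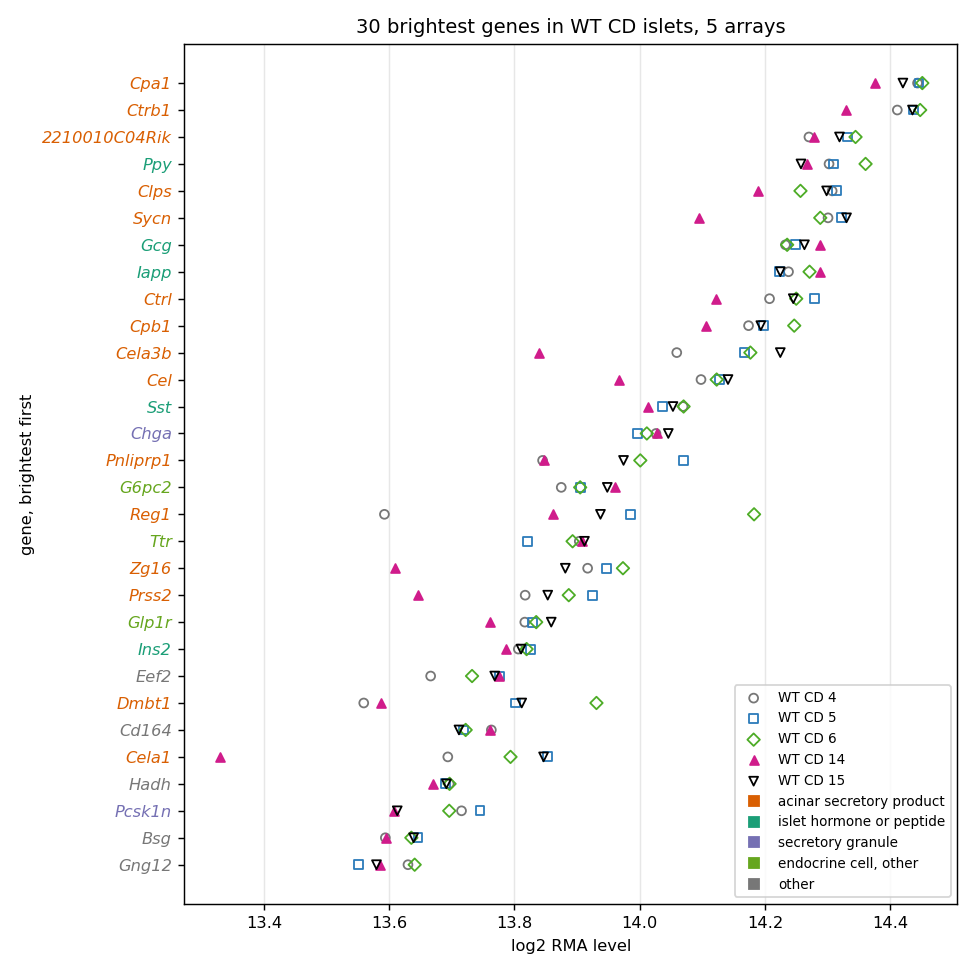
The log2 RMA level of the 30 brightest genes (vertical axis, brightest at the top) in each of the 5 WT CD arrays, with gene names colored by role. The filled triangles of WT CD 14 lie to the left of the other arrays for most acinar genes, such as Cela1 at 13.33 and Sycn at 14.09, whereas among hormones it is the lowest for Ins2 at 13.79 and the highest for Gcg at 14.29, each close to the other arrays.

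Hormone genes were bright and even across the 5 mice. Ppy, which encodes pancreatic polypeptide, held rank 4 with 14.30, 14.31, 14.36, 14.27 and 14.26 in WT CD 4, 5, 6, 14 and 15. Gcg, the proglucagon gene of alpha cells, read 14.23, 14.25, 14.24, 14.29 and 14.26, and Iapp, the amylin gene of beta cells, 14.24, 14.22, 14.27, 14.29 and 14.22. Ins2, an insulin gene, read 13.81, 13.83, 13.82, 13.79 and 13.81, an SD of 0.02. No array stood out in any of these, though the levels lie near the highest value of any cluster, and whether the scale is compressed there was not tested. Ins1, the other insulin gene of the mouse, has no value here, because no cluster carried its symbol alone. Pyy, the gene of peptide YY, averaged 13.31 ± 0.07 (SD, n = 5). Ucn3, which encodes urocortin 3, a peptide of mature beta cells, averaged 13.42 ± 0.07. Of the hormones listed, Ghrl, the ghrelin gene of epsilon cells, was the dimmest and the least even, with 7.10, 7.81, 7.90, 8.23 and 7.83, lowest in WT CD 4.

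Sst, the somatostatin gene of delta cells, read 14.07, 14.04, 14.07, 14.01 and 14.05 (14.05 ± 0.02, SD, n = 5). The promoter of somatostatin is a textbook case of a cAMP response element, the site through which cAMP raises transcription, and it is shown for that reason. The 250 bases before its start (RefSeq, GRCm38.p6, chr16:23890845-23891094, minus strand) are printed 5′ to 3′ with TGACGTCA in capitals:
Sst: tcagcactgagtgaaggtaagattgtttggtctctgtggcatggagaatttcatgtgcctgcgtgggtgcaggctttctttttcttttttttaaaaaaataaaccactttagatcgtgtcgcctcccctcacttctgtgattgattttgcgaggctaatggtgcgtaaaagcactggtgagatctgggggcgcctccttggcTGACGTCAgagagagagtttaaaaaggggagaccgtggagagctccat
The match starts at position -48, counted back from the start. TGACGTCA, which reads the same on both strands, was found in 1.62% of the 250-base windows of 27025 genes. A match of letters is a description and not a measured site.

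Granule genes were also even, and receptors of endocrine cells less uniformly so. Chga, chromogranin A, the main granin of endocrine granules, read 14.03, 14.00, 14.01, 14.03 and 14.05. All 23 measured granule genes lay above the reference (68.8% of all genes), with a median SD of 0.05, against 0.09 over all genes. Relative to genes of like brightness their median SD was 0.83. None had an SD over 0.5, but only 1.38% of all genes did, so a list of this size shows little by that count. Pcsk1n, which encodes the granin-like proSAAS, averaged 13.68, Scg3 13.40 and Chgb 12.83. G6pc2, the islet-specific glucose-6-phosphatase, averaged 13.92 ± 0.03 and Glp1r, the receptor of the incretin GLP-1, 13.82 ± 0.04. Among beta cell genes Slc30a8, the zinc transporter of the insulin granule, averaged 13.11 and Slc2a2, the glucose transporter GLUT2, 12.89. Gipr, the receptor of the other incretin, was the dimmest member at 7.32, below the reference, and had the largest SD of the beta cell list, 0.19, though levels of different genes cannot be ranked by abundance here.

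Transcription factors of the beta cell differed in spread. Neurod1 read 12.53, 12.43, 12.44, 12.12 and 12.21 in WT CD 4, 5, 6, 14 and 15, and Pdx1, the master regulator of the pancreas, 11.89, 11.83, 11.76, 11.49 and 11.62. Mafa, which drives the insulin gene of mature cells, read 11.36, 11.25, 11.34, 11.07 and 11.20. In all 3 WT CD 14 was lowest and WT CD 4 highest. The same held for Pax6, another such factor, which ranged less at 11.77, 11.73, 11.70, 11.64 and 11.66. Of the 20 beta cell genes, 10 were lowest in WT CD 14, where 32.3% of all genes were lowest, and 6 were lower in both WT CD 14 and 15 than in the other 3 arrays, a pattern of 11.0% of all genes. With quantile normalization the number lowest in WT CD 14 was 5, and 31.7% of all genes were. The SD of Neurod1 was 0.17, of Pdx1 0.16 and of Mafa 0.12. The median SD of the 20 beta cell genes was 0.11, against 0.09 over all genes. Relative to genes of like brightness it was 1.40. No beta cell gene had an SD over 0.5, but only 1.38% of all genes did, so this count shows little.

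The acinar products held the top of the ranking. Cpa1, carboxypeptidase A1, was the brightest gene at 14.44, 14.45, 14.45, 14.37 and 14.42 in WT CD 4, 5, 6, 14 and 15. Ctrb1, chymotrypsinogen B, followed at 14.41, 14.44, 14.45, 14.33 and 14.44. Clps, the colipase that anchors pancreatic lipase, averaged 14.27, Sycn, a zymogen granule protein, 14.27, Ctrl 14.22, Cpb1 14.18, Cela3b 14.09 and Cel 14.09. At rank 3 stood a gene known by its clone name, 2210010C04Rik, with 14.31, and Pnliprp1 averaged 13.95, Zg16 13.87, Prss2 13.83 and Dmbt1 13.74. Like those of the hormones, these levels lay close to the highest value of any cluster. Dimmer acinar genes spread more. Pla2g1b, the secreted phospholipase, read 13.00, 13.47, 13.39, 12.45 and 13.21, a 2.03-fold range, whereas that of Cpa1 was 1.05-fold. Ptf1a, the transcription factor that sets acinar fate, read 8.22, 8.46, 8.46, 7.55 and 8.33. Aqp12, a water channel of acinar cells, read 10.11, 10.64, 10.31, 9.49 and 10.50.

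In the deposited values every measured gene of both acinar lists was lowest in WT CD 14 or in WT CD 4. These arrays held the lowest value of 32.3% and 26.8% of all genes. Of the 15 measured digestive enzymes 13 were lowest in WT CD 14, and the other 2 in WT CD 4. Of the 17 other acinar genes 12 were lowest in WT CD 14 and the other 5 in WT CD 4, while 10 were highest in WT CD 5, where 28.8% of all genes were highest. The mean of the other acinar genes was 10.82, 11.17, 11.06, 10.63 and 11.11 in WT CD 4, 5, 6, 14 and 15, a 1.46-fold range. That of the digestive enzymes was 13.58, 13.72, 13.68, 13.41 and 13.69. With quantile normalization 7 of the 15 enzymes were lowest in WT CD 14, as were 31.7% of all genes. Another 4 were then lowest in WT CD 4 and the rest in other arrays. The mean of the enzymes was still lowest in WT CD 14 at 13.46. No gene of either list had an SD over 0.5, but only 1.38% of all genes did, so this count shows little. The median SD was 0.10 for the enzymes and 0.26 for the other acinar genes. Relative to genes of like brightness it was 1.70 and 2.92. Tff2, a trefoil factor listed apart from the acinar genes, read 12.41, 12.76, 12.71, 11.87 and 12.81, in the same order of WT CD 14 below WT CD 4 below the rest.

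The 17 remaining bright genes had mixed roles. Eef2, the elongation factor that moves the ribosome along, averaged 13.74, Cd164, a sialomucin, 13.74, Bsg, the surface protein basigin, 13.62 and Gng12, a G protein γ subunit, 13.60. Hadh, a mitochondrial enzyme of fatty acid oxidation that also restrains insulin secretion, had the smallest SD of the 50 at 0.01, with 13.70, 13.69, 13.70, 13.67 and 13.69. The 23 measured genes of ER chaperones and stress had a median level of 12.38. Dnajb9, a co-chaperone, averaged 13.44, Hsp90b1 13.19 and Hspa5, the chaperone BiP, 13.07. Mt2, a metallothionein that binds zinc, averaged 13.27.

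Spread across the mice was small for most genes and large for a few. The median SD was 0.09, with quartiles of 0.06 and 0.13, and over 10 equal bins by brightness it fell from 0.15 in the dimmest to 0.06 in the brightest. An SD over 0.5 was found in 205 genes (1.38%), of which 124 lay below the olfactory receptor reference and 81 above it. The latter were 0.792% of the genes above the reference. Of the 100 most variable genes overall 52 lay below the reference and 17 were olfactory receptors, such as Olfr142, which read 5.29, 4.53, 5.57, 3.56 and 5.73. Dim genes in this ranking were Gabrp, a GABA receptor subunit, at 5.88, 6.47, 6.37, 8.72 and 6.31, and Slbp, which binds histone mRNA, at 2.56, 2.66, 4.78, 3.53 and 3.99. The genes described from here on are mainly the 100 most variable above the reference, of which Mmp14 was the last with an SD of 0.46 and Aqp12 the first outside with 0.45.

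**Figure D2:**
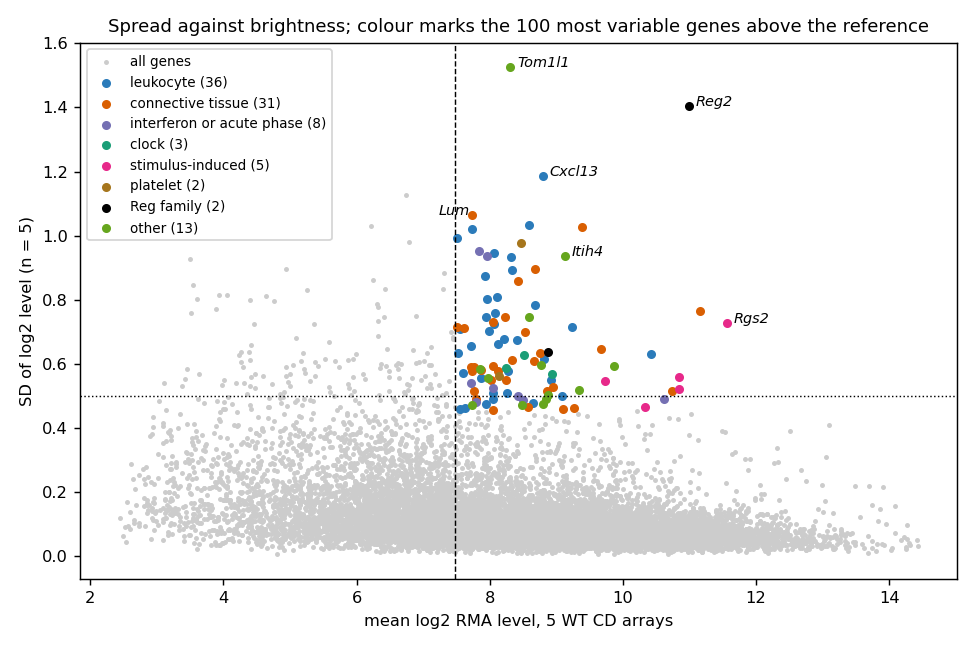
The SD of the log2 level over the 5 WT CD arrays against the mean level, 1 point for each of 14860 genes. The dashed line is the olfactory receptor reference at 7.48, the dotted line an SD of 0.5, and colors mark the roles of the 100 most variable genes above the reference, in which leukocyte (36) and connective tissue (31) genes are the most numerous.

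By their known roles, these 100 genes were mostly those of leukocytes and of connective tissue. There were 36 leukocyte genes, 31 of connective tissue, 8 of the interferon or acute phase response, 5 induced by stimuli, 3 of the circadian clock, 2 of platelets, 2 of the Reg family and 13 with other roles. WT CD 14 held the highest value in 82 of the 100, in 79 after median centring and in 82 after quantile normalization, and in 72 of the 100 most variable genes ranked with no filter on brightness. It held it in 18.2% of all genes, but the spread over these same arrays chose the members, so nothing is read from that or any other share of all genes set beside their counts. In 14 of the 100 the mean was above the reference only with WT CD 14 included, among them 8 leukocyte and 5 connective tissue genes. Without WT CD 14, 15 genes above the reference had an SD over 0.5 in place of 81, and 40 of the 100 most variable genes were shared with the ranking of all 5 arrays.

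Leukocyte genes formed the most numerous group. All 36 were highest in WT CD 14, and in 34 of them WT CD 5 was second. High values in WT CD 14 add to the spread that chose these genes, so the counts are descriptions. In 8 of the 36 the mean was above the reference only with WT CD 14 included. Ptprc, the pan-leukocyte phosphatase CD45, read 7.14, 7.68, 6.80, 9.17 and 6.79 in WT CD 4, 5, 6, 14 and 15. It was 1 of the 8, with a mean of 7.10 without WT CD 14. Cd79b, a chain of the B cell receptor, read 8.17, 9.13, 7.71, 10.14 and 7.82, and Cd3e, a chain of the T cell receptor complex, 7.87, 8.10, 7.36, 9.12 and 7.25. In these genes WT CD 14 and 5 lay above WT CD 4, and WT CD 6 and 15 were the lowest. Cxcl13, a chemokine that draws B cells, differed in order, with 7.83, 7.79, 8.31, 10.48 and 9.57, so that WT CD 15 was second.

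In most of the listed leukocyte markers WT CD 14 was highest and WT CD 5 second. The 12 pan-leukocyte and MHC class II genes averaged 8.78, 9.19, 8.58, 10.05 and 8.55, a 2.83-fold range, and in 12 of 12 WT CD 14 was highest and WT CD 5 second, an order of 7.14% of all genes. Of these 12, 8 were also among the 100 most variable genes above the reference, so the counts overlap and are descriptions. Among the 12 were Cd74, the class II invariant chain, at 12.29, 12.42, 12.11, 12.78 and 12.05, and Ccr7, a homing receptor of lymphocytes and dendritic cells, at 7.97, 8.91, 7.55, 9.66 and 7.52. The 8 B and plasma cell genes averaged 7.19, 7.62, 6.91, 8.24 and 7.05, and the 13 T and NK cell genes 6.91, 7.17, 6.65, 7.71 and 6.70, with WT CD 14 highest and WT CD 5 second in 7 of the 8 and in 10 of the 13. In each of these lists 2 genes were among the same 100. Mzb1, a plasma cell gene, was the exception among the 8, with WT CD 5 lowest at 7.94. Ms4a1, which encodes CD20, read 5.57, 6.78, 5.16, 7.72 and 5.88. Ccl5, a T cell chemokine, read 7.45, 8.27, 6.71, 9.22 and 7.01, with a mean below the reference, 7.36, without WT CD 14. The neutrophil genes S100a8 and S100a9 did not share the order and were dim, with means of 4.22 and 5.83.

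In macrophage genes too WT CD 14 was mostly the highest, in 13 of 16 (18.2% of all genes). The 16 measured averaged 7.79, 7.86, 7.74, 8.32 and 7.73, with WT CD 14 apart from the other 4. Cd68, a lysosomal protein of macrophages, read 8.75, 8.82, 8.63, 9.89 and 8.53, and Csf1r, the receptor for their growth factor, 8.27, 8.47, 8.31, 9.21 and 8.31. C1qa, a complement gene, read 10.03, 9.98, 9.99, 10.59 and 10.28. Without WT CD 14 the median SD fell from 0.31 to 0.12 for the macrophage list and from 0.63 to 0.25 for the pan-leukocyte list. It fell from 0.46 to 0.26 for the B cell list, where WT CD 5 remained above WT CD 4, 6 and 15.

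**Figure D3:**
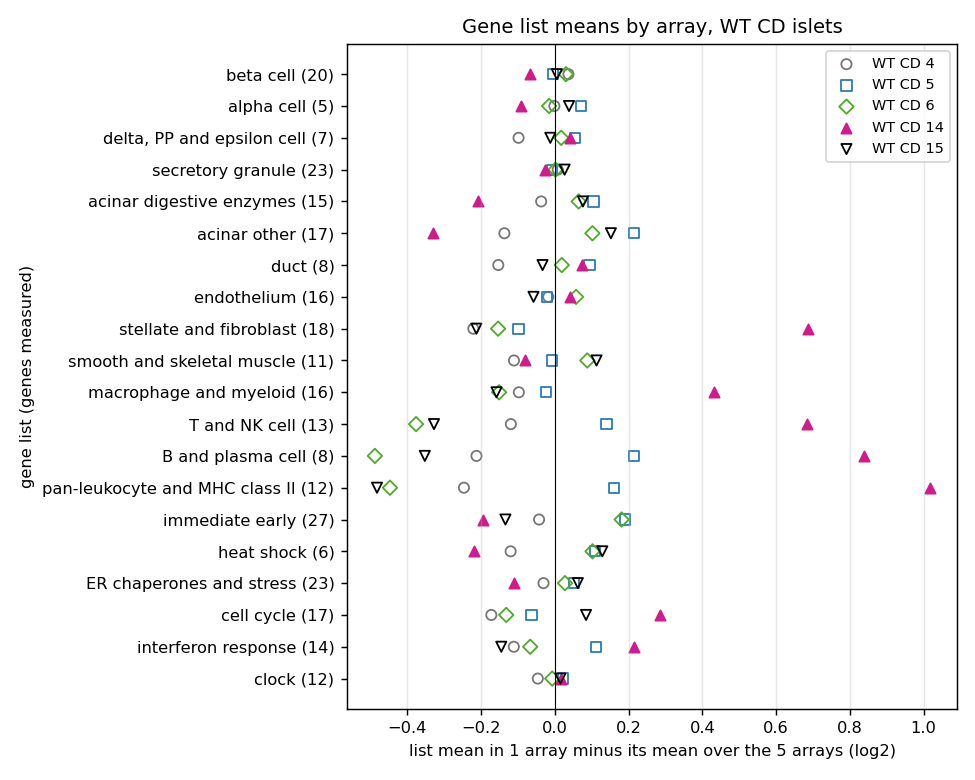
The mean of each gene list in 1 array minus its mean over the 5 WT CD arrays (horizontal axis, log2), with the number of genes measured in brackets. WT CD 14 (filled triangles) is the highest for the leukocyte and the stellate and fibroblast lists and the lowest for the acinar lists, while the endocrine and endothelial lists lie near 0.

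In most connective tissue genes WT CD 14 lay well above the other arrays. All 31 were highest in WT CD 14, and the median gap to the next array was 1.15 on the log2 scale. For 5 of the 31 the mean was above the reference only with WT CD 14 included. In 24 this gap, divided by the range, was above 0.71, Dixon's critical ratio for 5 samples, as in 7 of the 36 leukocyte genes. Of all genes 7.01% had a gap above it at either end, and since large spread chose the members, these counts are descriptions. In the other 7 another array came closer, as in Fmo2, a monooxygenase, with 8.87 in WT CD 6 against 9.17 in WT CD 14. The second highest array was WT CD 6 for 14 genes, WT CD 5 for 10 and WT CD 15 for 7. Lum, which encodes lumican, a proteoglycan of the collagen matrix, read 7.07, 7.39, 7.47, 9.60 and 7.09, below the reference in all but WT CD 14. Dcn, the related decorin, read 10.50, 11.00, 11.13, 12.46 and 10.74, and Dpt, dermatopontin, 7.60, 7.81, 7.86, 9.34 and 7.63. Penk, the enkephalin precursor, grouped here because fibroblasts also express it, read 8.73, 9.08, 9.18, 11.19 and 8.75.

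Not every gene of the fibroblast and stellate list followed. The 18 averaged 8.64, 8.76, 8.70, 9.54 and 8.64, and 15 were highest in WT CD 14 (18.2% of all genes). Of the 18, 7 were also among the 100 most variable genes above the reference, so the counts overlap. Col1a2, a chain of type I collagen, read 8.89, 8.96, 8.84, 9.91 and 8.88, and Mmp2, a matrix protease outside the list, 7.91, 8.16, 8.09, 9.95 and 8.03. Pdgfra, the receptor that marks fibroblasts, read 6.72, 6.84, 6.72, 7.78 and 6.64. Rgs5, a pericyte gene, read 11.09, 10.97, 10.96, 11.05 and 10.88, with no array apart. Gpx3, a secreted glutathione peroxidase, was as even at 12.32, 12.28, 12.34, 12.32 and 12.40. The list had 6 genes with an SD over 0.5 (1.38% of all genes), and none without WT CD 14, when its median SD fell from 0.35 to 0.08.

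**Figure D4:**
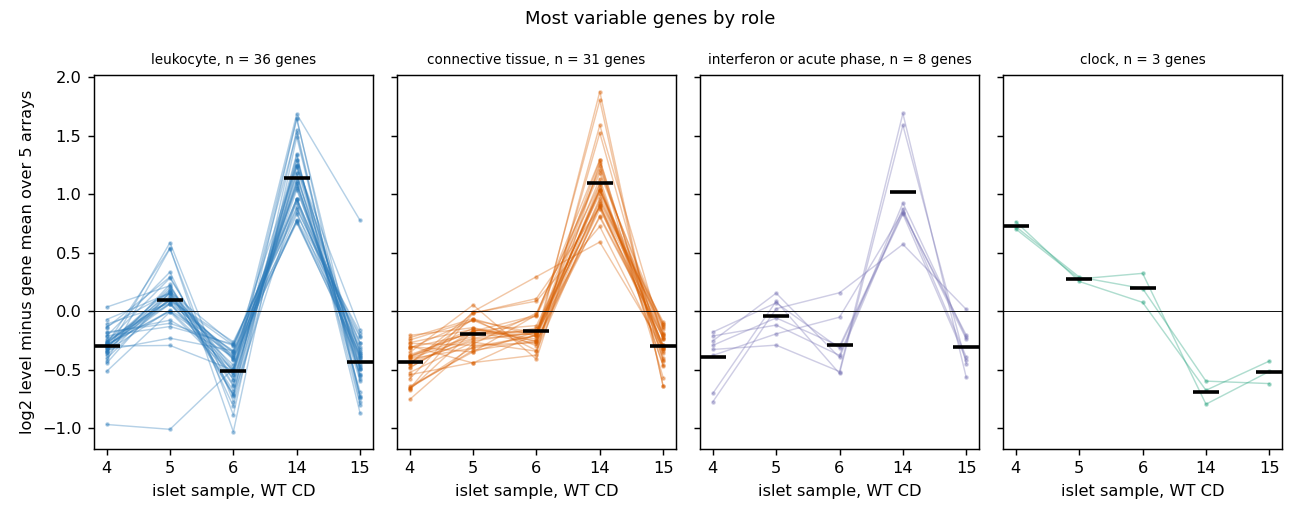
Level of each gene minus its mean over the 5 WT CD arrays (log2), for 4 role groups of the most variable genes. Thin lines join the values of 1 gene and black bars are the group mean, so leukocyte genes are seen to be high in WT CD 14 and next in WT CD 5, connective tissue genes mainly in WT CD 14, and the 3 clock genes in WT CD 4. These 3 are Arntl, Npas2 and Nfil3, and Nfil3 is not on the clock list. Of the 12 listed clock genes 7 were higher in both WT CD 14 and 15 than in the other arrays, and 3 were lower.

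Endothelial genes varied less. The 16 measured averaged 9.96, 9.96, 10.03, 10.02 and 9.92, with a median SD of 0.07, and 5 of them were highest in WT CD 14 (18.2% of all genes). With quantile normalization 7 were, as were 21.0% of all genes, and the mean was then highest there at 10.04. Cd34, shared by endothelium and other cells, read 10.38, 10.54, 10.50, 10.85 and 10.46, and Emcn, the sialomucin of capillary endothelium, read 12.15, 12.06, 12.15, 12.08 and 12.08. Lyve1, a marker of lymphatic endothelium and of some macrophages, was the least even of them at 9.43, 9.59, 9.89, 9.65 and 9.15. The 11 muscle genes had a median SD of 0.14, above the 0.09 of all genes, and of 0.15 without WT CD 14. Of these 11 genes 1, Des, which encodes desmin, was highest in WT CD 14, and 4 were lowest there (32.3% of all genes). Acta2, smooth muscle actin, read 9.71, 10.04, 10.38, 9.67 and 10.39, highest in WT CD 6 and 15 and lowest in WT CD 4 and 14. The 8 duct genes averaged 8.07, 8.32, 8.25, 8.30 and 8.19.

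Acute phase and interferon genes added 8 members, all highest in WT CD 14, and 1 of them had a mean above the reference only with that array included. Serpina3n, an acute phase protease inhibitor, read 7.51, 7.55, 7.33, 9.53 and 7.28, and Lcn2, an iron-binding protein of inflammation, 7.26, 8.05, 7.43, 9.55 and 7.52. Gbp2, an interferon-induced GTPase, read 7.47, 7.88, 7.33, 8.60 and 7.33. The 14 genes of the interferon list averaged 7.97, 8.19, 8.02, 8.30 and 7.94, and 8 of them were highest in WT CD 14 (18.2% of all genes). The exception at the other end was Rsad2, its brightest, the only 1 lowest in WT CD 14, at 9.54. Leukocyte and connective tissue lists moved with these genes, and their part in the result was not tested.

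Single genes with patterns of their own stood at the head of the ranking. Tom1l1, an adaptor of endosomal sorting, had the largest SD of all genes at 1.53. It read 9.33, 9.48, 6.69, 6.59 and 9.46, that is, 2 levels with WT CD 6 and 14 at the low one, below the olfactory receptor reference. Reg2, a secreted protein of the regenerating family, came next with 9.13, 10.58, 12.80, 11.90 and 10.59, a 12.8-fold range. Its relative Reg1 read 13.59, 13.99, 14.18, 13.86 and 13.94, a narrower range nearer the top of the scale, and was also highest in WT CD 6 and lowest in WT CD 4. Reg3g was highest in WT CD 14 at 9.84. Itih4, an inter-alpha-trypsin inhibitor heavy chain, read 8.03, 9.51, 10.35, 8.36 and 9.43. Ppbp, a chemokine of platelets, read 8.04, 9.44, 9.61, 7.76 and 7.53, and Gp9, a platelet glycoprotein, 7.80, 8.43, 8.92, 7.49 and 8.03. These 2, the only genes of the 100 given a platelet role, were both highest in WT CD 6 and next in WT CD 5. No list of platelet genes was made, so others were not looked up. Without WT CD 14 the leading genes were Reg2, Tom1l1, Ppbp and Itih4, with SDs of 1.52, 1.37, 1.03 and 0.96.

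**Figure D5:**
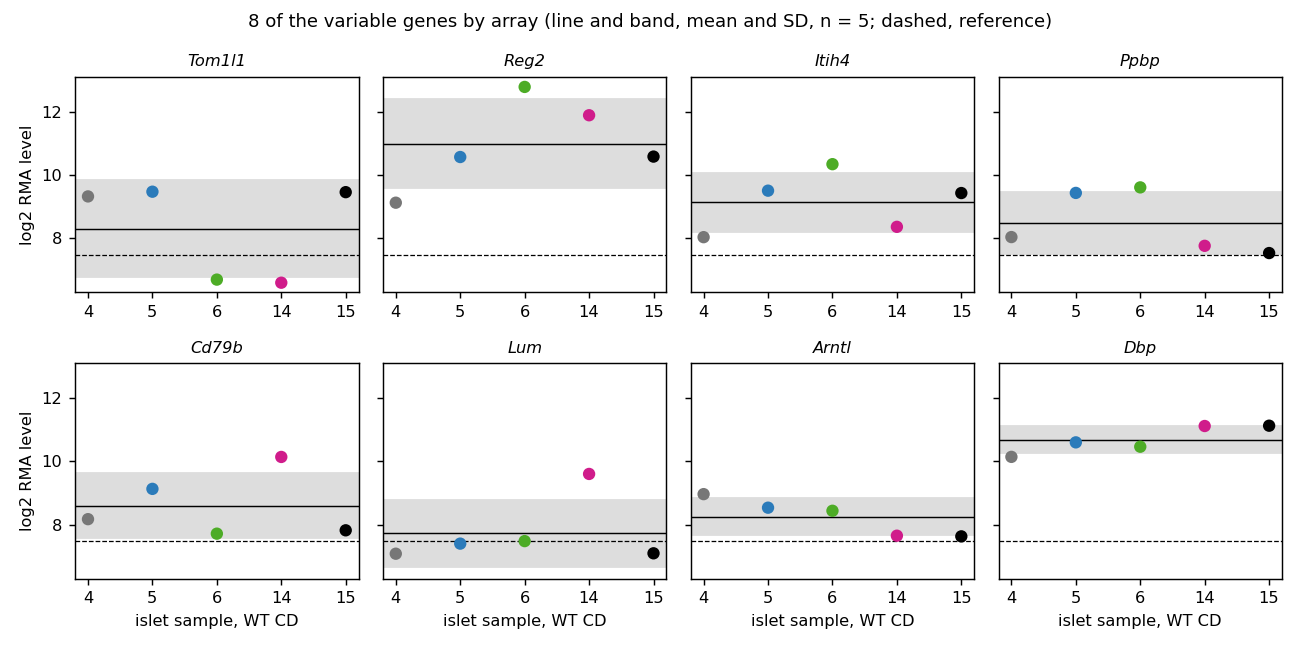
The log2 RMA level of 8 variable genes in each WT CD array, with the mean as a line, the SD (n = 5) as a band and the olfactory receptor reference dashed. Tom1l1 has 2 levels with WT CD 6 and 14 low, Reg2 spans 9.13 to 12.80, Lum is high in WT CD 14 alone, and Arntl and Dbp run in opposite directions.

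Genes of the circadian clock ran in 2 opposed directions. The clock is a loop in which Arntl (BMAL1) with Clock or Npas2 switches on genes such as Per, Cry, Nr1d2 and the transcription factors Dbp, Tef and Hlf through E-boxes, and the REV-ERB proteins, among them the product of Nr1d2, in turn repress Arntl, Npas2 and Nfil3. Arntl read 8.96, 8.53, 8.44, 7.64 and 7.62 in WT CD 4, 5, 6, 14 and 15, Npas2 9.70, 9.19, 9.01, 8.26 and 8.51, and Nfil3, which is not on the clock list and was added after its values were seen, 9.22, 8.80, 8.85, 7.73 and 8.01. All 3 were highest in WT CD 4 (11.1% of all genes) and lower in both WT CD 14 and 15 than in the other 3. Dbp ran the other way at 10.15, 10.61, 10.47, 11.12 and 11.13, as did Hlf at 8.64, 8.99, 8.90, 9.35 and 9.33.

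Of the 12 measured clock genes, 7 were higher in both WT CD 14 and 15 than in WT CD 4, 5 and 6, an order of 11.5% of all genes. Another 3 were lower in both, as were 11.0% of all genes. The 3 were Arntl, Npas2 and Bhlhe40, itself a repressor switched on through E-boxes, which read 10.08, 10.31, 10.48, 9.97 and 9.88. After median centring 6 were higher and 3 lower, when 7.03% of all genes were higher and 18.1% lower, and after quantile normalization the counts were the same, with 10.6% and 15.2% of all genes. Nr1d2 read 10.77, 11.10, 11.08, 11.36 and 11.41, Per3 8.84, 9.04, 9.05, 9.44 and 9.34, Per1 10.58, 10.57, 10.81, 10.93 and 10.90, and Tef 9.30, 9.47, 9.34, 9.79 and 9.68. The seventh, Cry1, differed least, with an SD of 0.03. Clock and Bhlhe41 showed neither order. The islet numbers are not described as batches in the labels, and neither the hour of islet isolation nor a processing date was used here.

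Promoter windows of 3 of these genes are shown as examples, chosen because each holds a sequence known from the loop. They are the 250 bases before the first listed start of each gene (RefSeq, GRCm38.p6), printed 5′ to 3′ with the named motif in capitals. In Per3 (chr4:151044666-151044915, minus strand) the capitals mark the D-box TTATGTAA, bound by Dbp, Tef, Hlf and Nfil3. In Tef (chr15:81802423-81802672, plus strand) they mark the E-box CACGTG, and in Nfil3 (chr13:52981040-52981289, minus strand) the half-site AGGTCA of the REV-ERB and ROR receptors, on the opposite strand.
Per3: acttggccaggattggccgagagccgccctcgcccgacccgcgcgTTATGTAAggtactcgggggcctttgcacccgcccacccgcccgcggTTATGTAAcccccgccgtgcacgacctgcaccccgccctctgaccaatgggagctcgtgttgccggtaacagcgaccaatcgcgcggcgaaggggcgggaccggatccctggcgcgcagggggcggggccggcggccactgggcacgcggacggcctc
Tef: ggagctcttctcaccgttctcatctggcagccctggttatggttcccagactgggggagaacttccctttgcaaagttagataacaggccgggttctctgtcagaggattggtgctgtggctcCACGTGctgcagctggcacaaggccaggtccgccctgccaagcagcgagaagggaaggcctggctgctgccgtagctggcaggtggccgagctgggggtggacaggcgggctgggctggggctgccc
Nfil3: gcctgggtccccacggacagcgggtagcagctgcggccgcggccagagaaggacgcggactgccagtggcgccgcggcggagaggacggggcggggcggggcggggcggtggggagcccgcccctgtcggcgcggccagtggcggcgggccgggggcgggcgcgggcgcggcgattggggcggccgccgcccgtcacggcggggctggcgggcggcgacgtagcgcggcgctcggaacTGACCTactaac
The D-box was found, on either strand, in 0.862% of the windows of 27025 genes, the E-box in 6.05% and the half-site in 13.8%. Of the 12 clock genes 11 had a window, and the E-box was in 4 of them (Per1, Cry1, Tef and Bhlhe41), the half-site in 2 (Per1 and Nr1d2) and the D-box in 1, that of Per3, which holds it at positions -205 and -158. The windows of Arntl, Npas2, Dbp, Hlf and Clock held none of the 3. No match says only that the letters are not in this window.

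Immediate early genes, which cells switch on within minutes of a stimulus such as calcium influx, were bright in all 5 islet preparations. Of the 27 measured 26 lay above the reference (68.8% of all genes), with a median level of 9.99 and a median SD of 0.21. Fos read 12.54, 12.67, 12.54, 12.04 and 12.42, Dusp1, a phosphatase that damps MAP kinases, 12.68, 12.90, 12.97, 12.35 and 12.46, and Nr4a1, a nuclear receptor, 11.03, 11.23, 11.70, 10.75 and 10.94. In these 3 genes WT CD 14 was lowest and WT CD 15 next. Of the 27, 14 were lower in both WT CD 14 and 15 than in the other 3 arrays (11.0% of all genes), and none was higher in both. After median centring the number was 18, when 18.1% of all genes were lower in both, and after quantile normalization 17, when 15.2% were. The most variable were Npas4, a calcium-induced transcription factor, at 10.37, 11.03, 11.35, 10.13 and 11.31, and Atf3, at 10.14, 10.70, 10.94, 10.07 and 9.83.

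Genes of the same kind outside the list varied too. Socs3, the inhibitor of cytokine signaling, read 11.09, 11.28, 11.26, 10.14 and 10.45, and Rgs4, a regulator of G protein signaling, 10.16, 10.18, 10.05, 9.04 and 9.25, each with WT CD 14 and 15 below the rest. Rgs2, another such regulator, ran in the opposite direction at 10.74, 10.95, 11.57, 12.23 and 12.35. These 3 were chosen after their values were seen. The promoter window of Nr4a1 (RefSeq, GRCm38.p6, chr15:101266596-101266845, plus strand) shows the half-site of the cAMP response element, TGACG, in capitals, here always on the opposite strand as CGTCA:
Nr4a1: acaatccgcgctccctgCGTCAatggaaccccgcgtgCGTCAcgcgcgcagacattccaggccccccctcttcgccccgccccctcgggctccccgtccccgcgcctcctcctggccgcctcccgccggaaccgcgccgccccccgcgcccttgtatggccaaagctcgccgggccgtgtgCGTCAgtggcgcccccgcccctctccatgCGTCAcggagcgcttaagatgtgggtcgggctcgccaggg
Its 4 matches start at positions -233, -213, -69 and -40. Of the 27 immediate early genes 21 had a window, and 13 of these held TGACG on either strand, against 17.9% of the windows of all genes.

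Most proliferation genes were higher in WT CD 14 and 15. Of the 17 measured, 10 lay above the reference (68.8% of all genes). In 12 both WT CD 14 and 15 were higher than the other 3 arrays (11.5% of all genes), and 13 were highest in WT CD 14 (18.2%). The number higher in both was also 12 under median centring and quantile normalization, against the 7.03% and 10.6% of all genes given above. Mki67, the gene of the proliferation marker Ki67, read 5.55, 5.74, 5.62, 6.58 and 5.97, and Top2a, a topoisomerase of dividing cells, 6.36, 6.39, 6.39, 7.54 and 6.90. Mki67 lay below the reference in all 5 arrays and Top2a in all but WT CD 14. Ccna2, cyclin A2, read 8.06, 8.09, 8.11, 8.78 and 8.42. The list mean was 7.23, 7.33, 7.27, 7.68 and 7.48. The leukocyte lists were also highest in WT CD 14, and the part of these cells was not tested.

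Genes of energy metabolism and of ER chaperones and stress had spreads near the median SD of all genes, 0.09, and heat shock genes a larger one. The 41 genes of the respiratory chain and ATP synthase had a median SD of 0.10 and the 23 ER chaperone and stress genes 0.08. The 11 hypoxia genes had 0.07 and the 10 glycolysis genes 0.10. Relative to genes of like brightness the median SDs were 1.46, 1.35, 1.18 and 1.29 times as large, in the same order. None of these genes had an SD over 0.5, but only 1.38% of all genes did, so lists of this size show little by that count. Of the stress genes Chac1, a glutathione-degrading enzyme, was the least even at 11.78, 12.18, 11.67, 11.43 and 12.08. The 6 heat shock genes had a median SD of 0.22, or 2.87 relative to genes of like brightness. The most variable of them was Hspa1a, an inducible HSP70 gene, at 8.79, 9.22, 9.75, 9.12 and 8.83, highest in WT CD 6.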

How the data were processed

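RNA of hand-picked islets was hybridized to Mouse GeneChip Exon 1.0 ST arrays. The authors deposited gene-level log2 values made with RMA in Affymetrix Expression Console 1.3. How many arrays were normalized together, and the probe intensities, are not given in the sources used here, so another background correction was not tried. The lowest RNA integrity number was 7.40 over all samples. The exon-level values of the same preparations were not used. Clusters were named from GEO's platform annotation; 1019 with several symbols and 7317 with none were left out. Of several clusters of 1 gene (135 genes) the one with the highest mean over the 5 WT CD arrays was kept.

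Genes were ranked by mean and by SD (n - 1) of the 5 deposited log2 values with Python 3.11.15, numpy 2.4.6 and pandas 2.3.3, and figures were drawn with matplotlib 3.10.9. Nothing was tested between groups, since the group stands alone, and Dixon's ratio only marks an array set apart, and the number of arrays limits the precision. Spread is that between 5 mice, each with 1 array, and holds technical spread too. The ranking and the outlier ratio were checked on simulated data. The members, the 37 gene lists and the alternatives were chosen with earlier results of these data known, and the roles of ranked genes were assigned after the ranking was seen.

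Names were drawn by rule from the 30 brightest and 40 most variable genes, the 3 brightest and 3 most variable of each list, and Gnaz, Ins1, Ins2, Gcg, Sst, Ppy, Pyy, Ghrl, Iapp, Chga, Chgb, Mafa, Pdx1, Slc2a2, Glp1r, Gipr, Ptger3 and Mki67. Not all variable genes and list members of this rule are named. Named outside it, after their values were seen, were Bhlhe40, Col1a2, Cry1, Csf1r, Dad1, Dpt, Fmo2, Gp9, Hlf, Mlec, Mmp14, Nfil3, Nr4a1, Pax6, Pdgfra, Per1, Per3, Ptf1a, Rgs2, Rgs4, S100a8, S100a9, Slc30a8, Socs3, Tef and Ucn3, and the genes of the closing paragraph on other observations.

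Alternatives were median centring, quantile normalization, another cluster per gene, a filter on dim genes, median and MAD in place of mean and SD, SD relative to 500 genes of like brightness, and leaving out each array.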

Additional observations from a re-analysis of the deposited data

Results flagged for a closer look

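Of the 130 genes named here, those of the closing paragraphs included, 17 had 1 array set apart from the other 4 by Dixon's ratio (the gap to the nearest array over the range, critical value 0.71 for 5 samples). Chance flags about 1 in 20 such groups of samples, but many of these genes were named for their spread, so their number is not set against that rate. WT CD 14 was the array apart in 16 of them, as the highest in 11. These were the matrix and fibroblast genes Col1a2 (ratio 0.891), Mmp2 (0.873), Dpt (0.849), Lum (0.842), Pdgfra (0.823), Penk (0.817) and Mmp14 (0.786), the acute phase gene Serpina3n (0.878), the macrophage genes Csf1r (0.786) and Cd68 (0.786) and the GABA receptor gene Gabrp (0.794). WT CD 14 was lowest and apart for the acinar genes Sycn (0.822), Cel (0.753), Zg16 (0.748) and Ptf1a (0.739), and for Hadh (0.726), whose range is very small. Ttr (0.791) was the exception, with WT CD 5 lowest. Of the list means, that of the stellate and fibroblast genes (0.865) and that of the macrophage and myeloid genes (0.772) were set apart, both with WT CD 14 highest.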

How the results depend on the processing

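No paired analysis was possible because 1 group was described and its islet numbers are shared with no other group. The brightest 50 genes were nearly fixed, with 48 to 50 shared under every alternative tried and 48 to 49 when 1 array was left out. The number above the olfactory receptor reference and the number of lists with a median above it (31 of 36) stayed within 1.5 times their value. The spread depended on more. With only genes above the reference 81 genes had an SD over 0.5 and 48 of the 100 most variable were shared, with median and MAD 108 and 36, and with SD relative to genes of like brightness 65 were shared. Leaving out 1 array gave 89 to 252 genes with an SD over 0.5, and 39 to 92 of the 100 shared. The low ends, 89 and 39, came without WT CD 14. Without WT CD 14 and above the reference, an alternative chosen after seeing the data, 26 were shared with the ranking of all genes and 40 with that of genes above the reference. Also chosen then, median centring and quantile normalization, gave 1154 and 1059 genes with an array set apart, against 1042.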

Other observations

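A few genes of islet peptides and receptors outside the leukocyte, connective tissue and clock lists also varied among the mice. Pdyn, which encodes the opioid precursor prodynorphin, read 9.50, 8.74, 9.68, 9.47 and 9.90 in WT CD 4, 5, 6, 14 and 15, with WT CD 5 lowest. Gal, the galanin gene, read 7.72, 8.39, 7.99, 7.18 and 8.58, and Mc5r, a melanocortin receptor, 8.95, 8.83, 8.08, 8.95 and 9.45. Sostdc1, a secreted antagonist of BMP signaling, read 8.51, 9.40, 9.15, 7.89 and 8.95, with WT CD 14 lowest. Genes that respond to glucocorticoids were not uniform. Tsc22d3, the gene of the leucine zipper GILZ, read 9.05, 9.34, 9.31, 9.75 and 9.55, and Fkbp5 9.50, 9.56, 9.74, 9.90 and 9.94, both highest in WT CD 14 or 15, whereas Mt1 read 12.87, 13.10, 12.55, 12.54 and 12.71.

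Tom1l1 was also looked up in the 13 arrays of the other groups, which enter no comparison. It lay at 6.95, 6.96 and 7.38 in 3 of them and between 9.24 and 10.39 in the rest.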
